A study of Homo sapiens with 16 samples.

Results

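The 8 genes described here are the colony stimulating factors, Il34 and their receptors: the ligands Csf1, Il34, Csf2 and Csf3 and the receptor chains Csf1r, Csf2ra, Csf2rb and Csf3r. They were chosen by name as a family of ligands and receptors, and are 8 of 32285 genes in deposited tables of single-cell RNA-seq. The cells came from LPA1-T22 (T22) and LPA1-T127 (T127) mammary tumors, syngeneic transplant models grown from tumors of mice with an LPA1 receptor transgene in the mammary epithelium. The study asked why T22 responds and T127 does not respond to olaparib, an inhibitor of PARP, and how tumor macrophages take part.

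All mice were female FVB mice, 6 weeks old when obtained, that carried 25 mm3 tumor chunks in the mammary fat pad. The 4 short-term T22 pools and the 4 short-term T127 pools held tumors given vehicle or olaparib at 50 mg/kg daily by mouth for 4 or 8 days. The 8 long-term pools held T22 and T127 tumors given vehicle or the same daily dose for 20 days, transplanted as a single strain or with T22 on one side and T127 on the other. Each pool mixed hashtagged tumors, and no map from cells to tumors was used here, so vehicle and olaparib were not compared. The labels number the pools and do not say that they hold separate animals, so no test was run and pool ranges may show technical spread only. Each model is 1 transplant line, and a difference between the short-term T22 and T127 pools cannot be told apart from a difference between 2 sets of tumors. The methods assigned T22 mice to treatment 14 days after transplant and T127 mice after 10, while the results name 14 days for short-term tumors. Tumor age may thus also differ between these pools.

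CSF1 and IL34 are the ligands of the receptor tyrosine kinase CSF1R, on which most tissue macrophages depend for survival and proliferation. CSF2, also called GM-CSF, acts on myeloid cells through a specific alpha chain, encoded by Csf2ra, and a signaling beta chain, encoded by Csf2rb, which the mouse also uses for other cytokines. CSF3, also called G-CSF, drives neutrophil production through CSF3R. In mammary tumors CSF1 is best known for the recruitment and upkeep of tumor-associated macrophages.

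Levels are given in CPM, the UMIs of a gene per 1000000 UMIs of all genes in the cells of a cluster, as named in the deposited files, with the pools of a group summed. Intervals are 95% Poisson or binomial intervals and cover counting error only. Pool totals ranged from 34755906 to 55600377 UMIs, and median UMIs per cell from 3105 to 11712 in long-term, 7730 to 8528 in T22 and 22712 to 26017 in T127 pools. Long-term pools 1 and 2 shared 3939 cell barcodes, pools 1 and 3 shared 987 and pools 2 and 3 shared 1082, whereas no other pair of pools shared more than 11. The copy with most UMIs was kept for each of the 4146 barcodes found in more than 1 long-term pool, which left 25723 of 30845 long-term cells beside 15094 T22 and 8007 T127 cells. Names differed between copies for 2774 of these barcodes, and for 97 once monocyte and macrophage names were merged. With every shared barcode left out, an alternative chosen after the data were seen, no level of at least 100 UMIs moved by more than 1.19-fold.

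Csf1 was highest in i_CAF, 1 of 2 clusters of cancer-associated fibroblasts, in all 3 groups. In the 726 i_CAF cells of the long-term pools it stood at 181 CPM (interval 173 to 189.8), with pools from 145 over a median of 177 to 209. In T22 the pools held 190.3, 252, 218 and 248 CPM (227 in all), and in T127 188, 186, 234 and 180.2 CPM (198 in all). The T22 and T127 pools overlapped. Against the malignant clusters of the same pools summed (all 4 in the long-term pools, Malign_2 and Malign_3 in T22, Malign_0 and Malign_1 in T127), i_CAF levels were higher in 8 of 8 long-term pools (log2 ratio 1.56, SD 0.17 over pools), 4 of 4 T22 pools (2.13, SD 0.053) and 4 of 4 T127 pools (0.50, SD 0.23). The ratios were 2.98 (interval 2.84 to 3.13), 4.45 (4.18 to 4.74) and 1.42 (1.28 to 1.57). At an equal depth of 3000 UMIs per cell, 40.4% of 658 long-term i_CAF cells had a Csf1 UMI, against 1.54% of 1101 T and NK cells. Without thinning, at median depths of 14498 and 3678 UMIs, the shares were 75.5% and 2.39%.

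The T127 malignant clusters Malign_0 and Malign_1 came next, with more Csf1 than the T22 malignant clusters Malign_2 and Malign_3. The study assigned these clusters to the models. Long-term levels were 76.9 CPM in Malign_0 and 71.2 in Malign_1, with overlapping pools, and then 34.0 in Malign_2 and 13.4 in Malign_3. Summed by model, T127 pools ran from 68.6 to 90.9 CPM (74.6 in all) and T22 pools from 21.7 to 28.3 (25.7 in all), so the ranges lay apart and T127 was higher in 8 of 8 pools (log2 ratio 1.50, SD 0.17; ratio 2.90, interval 2.72 to 3.10). This difference existed within the same captures. In the short-term pools the T127 values were 142, 140.4, 132 and 145 CPM and the T22 values 43.2, 57.2, 51.0 and 53.2 (log2 ratio 1.43; ratio 2.74, interval 2.63 to 2.85). Of all genes measured in these cells, 17.5% in long-term and 20.4% in short-term pools passed the same rule of a 2-fold higher level in T127 with pool ranges apart, so Csf1 is 1 of many.

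With pools summed, regulatory T cells and macrophages held less Csf1 than i_CAF and the T127 malignant clusters, at levels near those of T22 malignant cells in the long-term pools. Regulatory T cells (CD4_Treg-FOXP3) of the T127 pools held 62.4, 49.6, 59.8 and 77.3 CPM from 35 UMIs in 149 cells, all above 9.22 CPM in the CD4_Tcm-TCF7 cells of these pools, a T cell cluster with 6 Csf1 UMIs. Long-term regulatory T cells held 30.6 CPM (14 UMIs, pools 0 to 90.3), a range that overlapped the long-term pools of the T127 malignant clusters. Among macrophages, which carry the receptor, Macro-M1 held 28.9 CPM, Macro-others 26.2 CPM and Macro-M2 20.2 CPM in the long-term pools. In T127 the last 2 held 3.44 and 6.96 CPM.

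**Figure D1:**
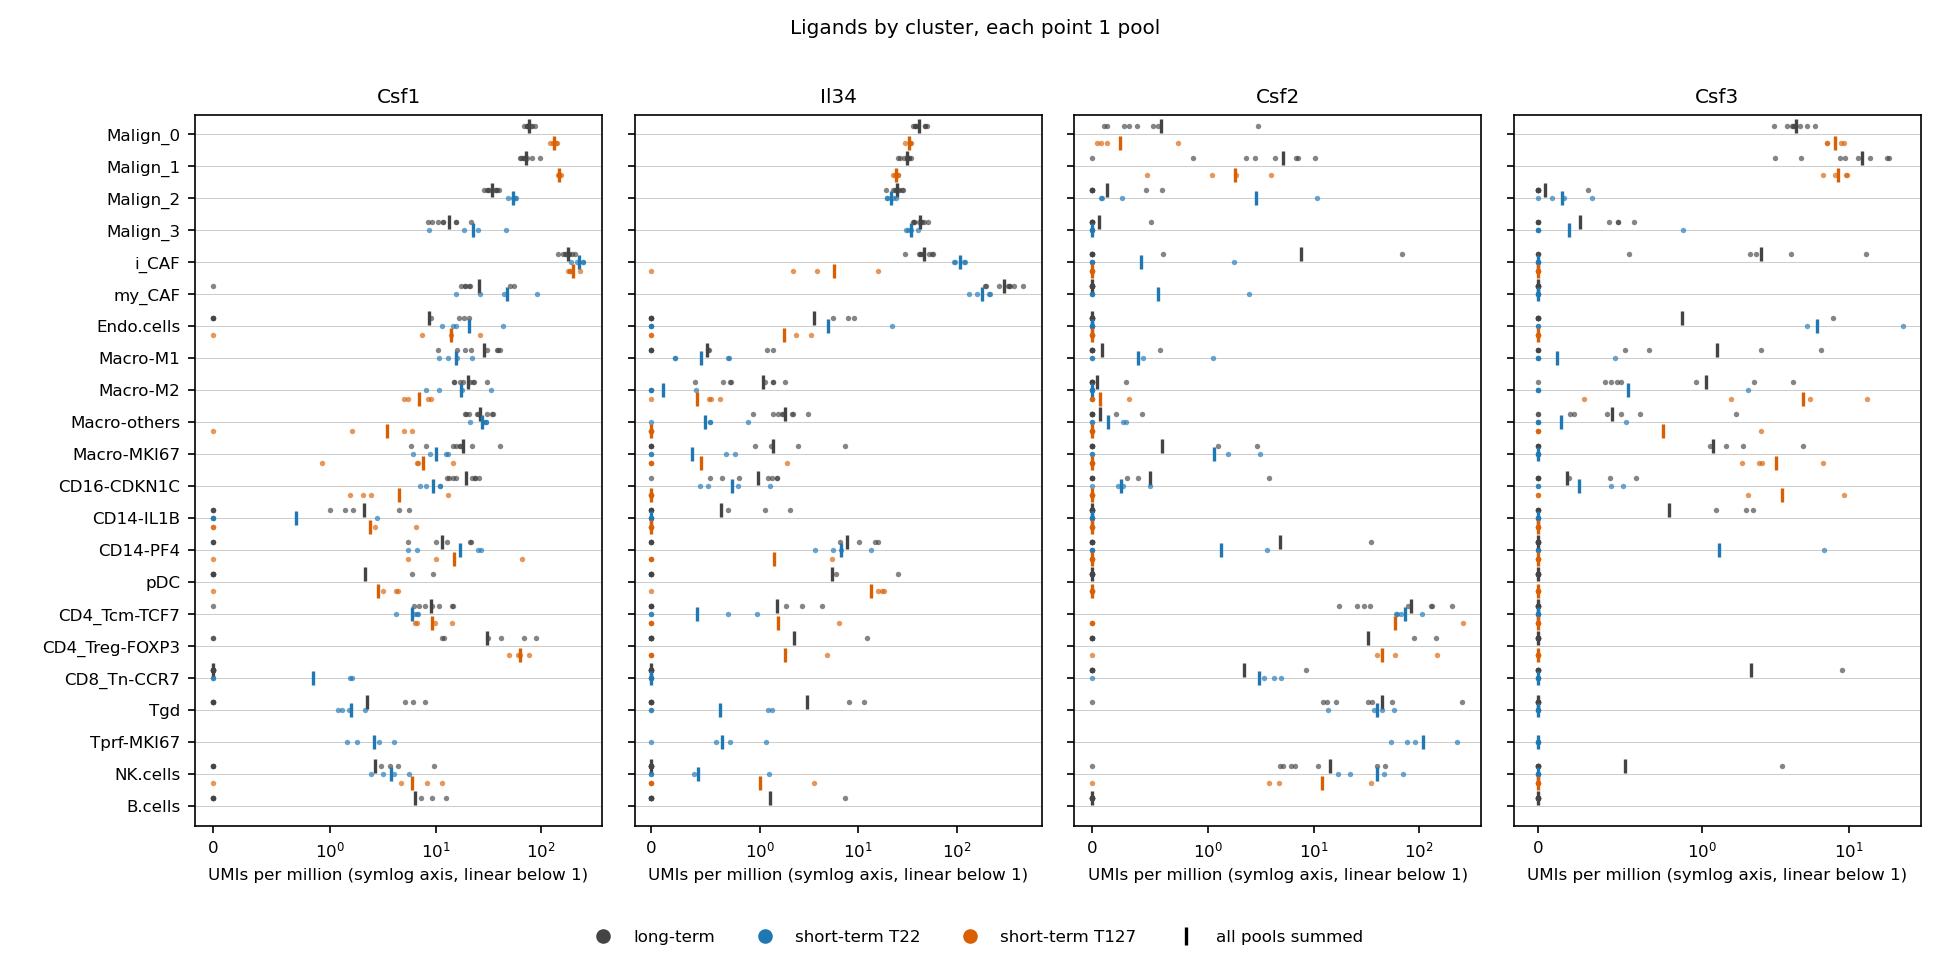
Levels of the 4 ligands by cluster in CPM, on an axis that is logarithmic above 1 and linear below it. Points are pools, vertical bars are pools summed, and clusters of under 50 cells are left out: Csf1 peaks in i_CAF (181 CPM long-term), Il34 in my_CAF (300.4), Csf2 in lymphoid clusters and long-term Csf3 in Malign_1 (12.3) and Malign_0 (4.35).

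Il34, the second CSF1R ligand, had another order, with the peak in my_CAF. This cluster was named for fibroblasts by the study and carried Acta2, the gene of smooth muscle actin. Long-term my_CAF cells held 7437 CPM of Acta2 and 124 CPM of the matrix gene Dcn, against 198 and 6544 CPM in i_CAF. Whether my_CAF cells were fibroblasts was not tested. Il34 in the 117 long-term my_CAF cells stood at 300.4 CPM (interval 262 to 343), with pools from 196 over a median of 338 to 474, all above the 30.1 to 58.0 CPM of i_CAF (46.1 in all). Csf1 ran the other way, at 25.6 CPM in my_CAF (19 UMIs) and 181 in i_CAF. Shares of cells thinned to 3000 UMIs followed these levels, and at this depth a missing UMI does not show that a cell lacks the transcript. Of 93 long-term my_CAF cells, 50.5% had a UMI of Il34 without Csf1 and 3.23% of Csf1 without Il34, and of 658 i_CAF cells 5.93% and 35.9%. Both ligands were found in 6.45% and 4.56% of them. In T22 the shares were 37.8% and 4.50% of 111 my_CAF cells and 14.5% and 35.1% of 282 i_CAF cells. Without thinning, 84.5% of the 291 T22 i_CAF cells had a Csf1 UMI and 71.5% an Il34 UMI. These ligands were thus not kept to separate cells there.

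In T22, Il34 pools held 221, 213, 160.1 and 135 CPM in my_CAF and 93.6, 123, 96.9 and 120.2 CPM in i_CAF, so the 2 clusters again did not overlap. The i_CAF cells of T127 had little Il34, with 15.9, 2.14, 3.83 and 0 CPM from 11 UMIs in 95 cells, 5.71 CPM in all against 108 CPM from 769 UMIs in the 291 T22 cells (log2 ratio -4.03; ratio 0.053, interval 0.026 to 0.095). Of all genes measured in i_CAF, 7.31% were likewise lower in T127 past 2-fold with pool ranges apart and 4.18% higher. The fibroblast genes Col1a1 and Dcn stood at 17726 and 5642 CPM in T127 and at 13273 and 4274 CPM in T22. The part of cell identity, cell mix or capture in the Il34 difference was not tested. Csf1 in the same i_CAF cells differed little, at 198 against 227 CPM with overlapping pools. Only 8 my_CAF cells, with 6 Il34 UMIs, were captured in T127.

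Malignant cells of both models held Il34, at levels closer to each other than for Csf1. Long-term levels were 42.3 CPM in Malign_3, 41.6 in Malign_0, 31.0 in Malign_1 and 24.5 in Malign_2, so the T22 clusters stood at both ends. By model, T127 stood at 37.4 CPM (pools 34.3 to 41.1) and T22 at 31.7 (28.2 to 35.4), overlapping ranges with T127 higher in 7 of 8 pools (log2 ratio 0.23, SD 0.16). In the short-term pools the values were 28.8 (26.6 to 29.8) and 22.7 CPM (21.4 to 24.4), with ranges apart at a log2 ratio of 0.33 (ratio 1.27, interval 1.19 to 1.35). Of all genes measured in malignant cells, 46.5% likewise had ranges apart with T127 higher, at any fold. Neither Il34 difference passed 2-fold. At 3000 UMIs per cell, long-term T127 malignant cells had Csf1 without Il34 in 18.3%, Il34 without Csf1 in 8.13% and both in 1.72% of 4603 cells. For T22 malignant cells the shares were 6.82%, 8.94% and 0.44% of 2259 cells. Without thinning, Csf1 was found in 67.5% and Il34 in 46.9% of long-term T127 malignant cells, and in 27.6% and 37.0% of T22 ones. A missing UMI at 3000 UMIs per cell thus does not show that a cell lacks the ligand. Macrophage clusters held 1.32 CPM of Il34 in the long-term pools and under 0.4 CPM in each short-term group (0.391 in T22 and 0.377 in T127).

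Csf2 was found in T and NK cell clusters and hardly in macrophages. The summed T and NK clusters held 53.4 CPM long-term (pools 20.9 to 115), 64.5 CPM in T22 (53.2, 76.8, 47.0 and 79.7) and 31.7 CPM in T127 (1.59, 90.6, 12.1 and 26.6). The 4 Macro clusters held 0.099, 0.33 and 0.047 CPM, from 10, 15 and 1 UMIs. Lymphoid levels were higher in every pool of the 3 groups, with log2 ratios of 5.63 (SD 0.81), 5.63 (SD 0.64) and 4.97 (SD 2.17). By cluster, CD4_Tcm-TCF7 stood at 84.3 CPM in the long-term pools (pools 17.5 to 209), Tgd at 45.3, CD4_Treg-FOXP3 at 32.8 and NK.cells at 14.4 CPM, all with overlapping pools, so no order was read from them. In Tgd 34 of 60 UMIs lay in 1 cell and the level was 21.8 CPM without pool 4, and in CD4_Treg-FOXP3 11 of 15 UMIs lay in 1 cell and the level was 8.01 CPM without pool 5. In T127 the summed T and NK level was 13.8 CPM without pool 2. In T22 the proliferating T cells (Tprf-MKI67) held 92.4, 54.5, 78.1 and 234 CPM and CD4_Tcm-TCF7 61.7, 108, 61.0 and 68.3 CPM.

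Few cells made up these levels. In CD4_Tcm-TCF7 of the long-term pools, 3.61% of 1136 cells had any Csf2 UMI, the 10 highest cells held 86.9% of the 344 UMIs and 1 cell held 74. All 39 Csf2 UMIs of this cluster in T127 lay in 1 cell of pool 2. Cells with at least 5 Csf2 UMIs were 13 of 1839 T and NK cells long-term with 79.4% of the UMIs, 113 of 4698 in T22 with 76.5% and 3 of 530 in T127 with 74.4%. A UMI of a T cell marker (Cd3e, Cd3d or Trac) was present in 1 of the 13, 34 of the 113 and 3 of the 3. Markers of other cells were present too, with a macrophage marker in 8, a fibroblast marker in 6 and a malignant marker in 1 of the 13 long-term cells. In T22 the numbers were 28, 50 and 35 of the 113, and in T127 0 of the 3 cells for each list. The part of RNA from other cells was not tested.

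The T clusters were then split by marker, a split chosen after these values were seen, so that its levels restate where the Csf2-rich cells lay and are a description only. Among long-term cells, 1375 with a T marker held 10.7 CPM of Csf2 (pools 0 to 32.4). The 52 cells of the same clusters without a T, NK or gamma delta T marker held 1613 CPM (pools 291 to 7148), and so 79.2% of all Csf2 UMIs of T and NK clusters in 2.83% of their cells. In T22, 3043 cells with a T marker held 33.6, 41.2, 25.6 and 40.5 CPM, against 593, 1144, 623 and 1638 CPM in 154 cells without any of these markers, which carried 40.5% of the UMIs in 3.28% of the cells. Median UMIs per cell were 3952 without and 3078 with a T marker in the long-term pools and 6214 and 7282 in T22, and the part of depth in the missing markers was not tested. In T127 the order was not seen, as the 8 cells without these markers held no Csf2 UMI, which allows up to 212 CPM at 3 counts, and 336 cells with a T marker held 53.0 CPM (pools 0 to 190.3).

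The cells without these lymphocyte markers carried other genes, looked up after their Csf2 was seen. These were Il13 and Il5, cytokine genes of type 2 immunity, Areg, which encodes a growth factor of tissue repair, Il1rl1, the receptor of IL33, and Gata3, a transcription factor, all known from type 2 helper T cells and group 2 innate lymphoid cells. Long-term Il13 stood at 827 CPM against 42.2 with a T marker, Il5 at 85.8 against 12.1, Areg at 2733 against 224, Il1rl1 at 104 against 28.6 and Gata3 at 479 against 87.2 CPM. In T22 the pairs were 1037 and 13.9 for Il13, 279 and 5.80 for Il5, 2109 and 42.2 for Areg, 495 and 14.2 for Il1rl1 and 777 and 95.7 for Gata3. All 5 genes were higher in the cells without lymphocyte markers in these 2 groups. In T127, the 8 cells without these markers held no Il13 or Il5 UMI, against 23.7 and 1.63 CPM with a T marker, while Areg stood at 3667 against 477, Il1rl1 at 776 against 228 and Gata3 at 564 against 230.03 CPM. A missing marker UMI does not show that a cell lacks the transcript, and the files give these cells no name of their own.

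**Figure D2:**
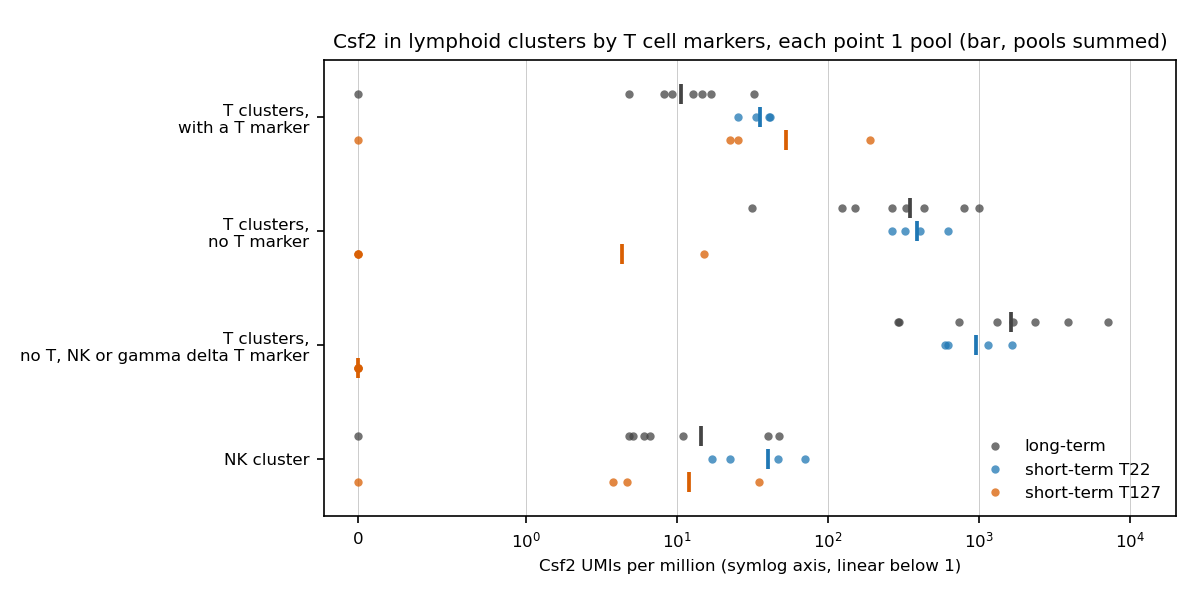
Csf2 in CPM (logarithmic above 1, linear below) in the T clusters split by T, NK and gamma delta T markers and in the NK cluster. Points are pools and bars are pools summed: cells without these markers stand at 1613 CPM long-term and 948 CPM in T22 and have no Csf2 UMI in T127, for a split made after Csf2 was seen.

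Outside lymphoid cells few cells held most of the Csf2. In T127, where malignant cells carried 68.1% of all Csf2 UMIs, 40 of 4878 malignant cells had a UMI and 6 of them held 69.8% of the 169 UMIs. Long-term malignant cells had a UMI in 48 of 6862 cells, and 12 cells held 78.7% of 244 UMIs. The median depth of these 6 and 12 cells was 53227 and 37673 UMIs, against 33836 and 18462 in all malignant cells of the groups, and the part of doublets was not tested. In the long-term i_CAF cells, 80 of 81 UMIs came from 1 cell of pool 1. This cell had 586 UMIs of fibroblast markers, 2 of macrophage markers, 1 of a mast cell marker and none of T or NK markers. Of the 13 long-term T and NK cells with at least 5 Csf2 UMIs, only 1 had a T and 2 an NK marker. Missing T and NK markers thus cannot tell whether the i_CAF cell was a doublet, which was not tested. Malign_1 held 5.16 CPM long-term, with 84.8% of its 204 UMIs in 10 cells, and 0.82 CPM without the top 5% of cells by UMIs, an alternative that leaves out possible doublets. Malign_2 in T22 held 10.7, 0.079, 0.087 and 0.26 CPM, with 79 UMIs in 1 cell of pool 1 and 0.14 CPM without that pool.

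Csf3 was found mostly in the T127 malignant clusters, which held 85.1% of its UMIs in the long-term and 94.0% in the T127 pools. In the T127 pools the malignant cells held 8.31, 8.50, 8.01 and 8.22 CPM from 1453 UMIs, and in T22 0.29, 0.15, 0.079 and 0.080 CPM from 8 UMIs (ratio 54.7, interval 27.7 to 126.9). In the long-term pools the T127 clusters held 7.50 CPM (pools 3.53 to 12.1) and the T22 clusters 0.13 CPM (0 to 0.37; ratio 58.9, interval 25.1 to 182). The ranges lay apart in both experiments, although the mean of the models lay under the 5 CPM needed for the rule over all genes, so no call was made. Malign_1 stood at 12.3 CPM with pools from 3.14 to 18.7 and 8.10 CPM without pools 1 to 3, while Malign_0 stood at 4.35 CPM (pools 3.13 to 5.89). These ranges overlapped, and in pool 5 Malign_1 lay below Malign_0 (3.14 against 3.81 CPM). At 3000 UMIs per cell, 1.67% of long-term cells of each cluster had a UMI. The difference in summed level was not seen in the T127 pools, where Malign_0 stood at 8.07 and Malign_1 at 8.48 CPM with overlapping pools. Of the 487 Malign_1 UMIs, 55.2% lay in 10 cells. Macro-M2 of T127 held 0.28, 1.58, 13.3 and 5.47 CPM, with 85.5% of its 69 UMIs in 10 cells. Of the 7 cells in the Macro clusters of T127 with at least 5 Csf3 UMIs, 4 also had a UMI of a malignant marker, and the part of malignant RNA in this level was not tested. T22 pools held 27 Csf3 UMIs in all.

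**Figure D3:**
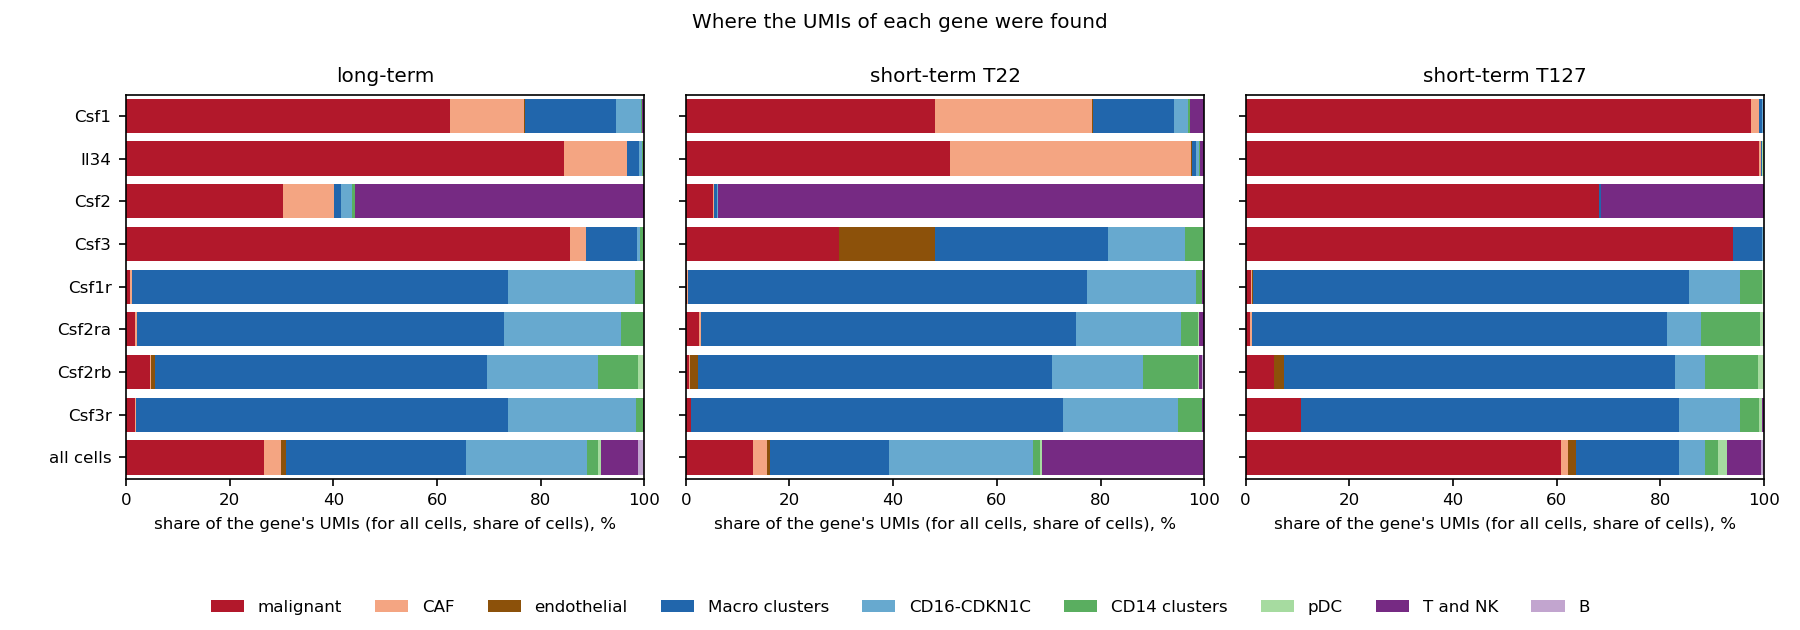
Share of each gene's UMIs found in each class of cells, in %, for the 3 groups, with the share of all cells as the lowest bar. UMIs per cell differ between classes, so the lowest bar is not the share of all UMIs. Malignant cells hold 62.5% of Csf1 and 84.6% of Il34 long-term, 48.1% and 51.0% in T22 and 97.5% and 99.1% in T127, while the receptors lie in Macro and CD16-CDKN1C clusters.

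The captured sources differed between the models. In T22, where malignant cells were 12.9% of cells, i_CAF and my_CAF together held 30.2% of the Csf1 UMIs (pools 28.4 to 31.4%) and 46.5% of the Il34 UMIs (43.0 to 47.9%). In T127, where malignant cells were 60.9% of cells, these cells held 97.5% of Csf1 (97.0 to 97.8%) and 99.1% of Il34 (98.4 to 99.6%). T and NK clusters held 93.8% of Csf2 in T22 and 31.5% in T127, where malignant cells held 68.1%. Such shares depend on how many cells of each type were captured after dissociation, and on UMIs per cell. Median UMIs per cell were 24802 in malignant and 6932 in T and NK cells of T22. In T127 they were 33836 and 3714. The malignant share of cells is thus not the malignant share of all UMIs, and the part of depth in these shares was not tested.

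Csf1r lay in macrophages, whose identity it helps to define. The 4 Macro clusters together held 567 CPM in the long-term pools (496 to 642), 1134, 1190.4, 1100.1 and 1133 CPM in T22 and 548, 562, 529.7 and 563 CPM in T127. They held 72.6%, 77.1% and 84.2% of all Csf1r UMIs. The cluster CD16-CDKN1C, which also carried all 5 macrophage markers looked up (Adgre1, Cd68, C1qa, C1qb and Mrc1, 15280.0 CPM in sum long-term against 15893 in Macro-M2), held a further 24.4%, 20.9% and 9.84%. After thinning to 3000 UMIs, 74.9%, 87.5% and 75.3% of Macro cells had a Csf1r UMI, against 1.27%, 1.18% and 0.16% of malignant cells and 2.54%, 1.42% and 0.30% of T and NK cells. Without thinning the shares were 94.5%, 94.1% and 94.8% in Macro cells, at median depths of 10619, 12931 and 11964 UMIs, and 7.46%, 4.55% and 2.48% in malignant cells, at 18462, 24802 and 33836.

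Within macrophages, the proliferating cluster Macro-MKI67 held less Csf1r, in CPM, than Macro-M2 in every pool. Long-term values were 369 CPM (312 to 438) against 533 (483 to 580.2), a log2 ratio of -0.53 (SD 0.15). In T22 the pools held 611, 732, 632 and 791 CPM against 1155, 1062, 1144 and 1126 (-0.69, SD 0.21). In T127 they held 343, 486, 411 and 411 CPM against 607, 587, 586 and 623 (-0.53, SD 0.23). No pool range overlapped. CPM is a share of all UMIs, of which Macro-MKI67 cells held more. In the same order of groups, their medians were 15227, 16417 and 22627 UMIs per cell, against 11168, 13221 and 11286 in Macro-M2. Without thinning, 93.1%, 90.3% and 97.5% of Macro-MKI67 cells had a Csf1r UMI, against 94.0%, 98.1% and 97.0% of Macro-M2 cells. The part of depth in the lower CPM was not tested. Macro-M2 lay below Macro-M1 in 8 of 8 long-term pools (533 against 632 CPM, log2 ratio -0.25, SD 0.12), but the ranges overlapped, and in T22 the clusters did not differ in a fixed direction (1122 against 1165 CPM, Macro-M2 higher in 3 of 4 pools). Macro-M1 had 3 cells in T127 and was not compared. The highest long-term levels, in Macro-M1 (632), Macro-others (615), CD16-CDKN1C (572) and Macro-M2 (533), overlapped from each to the next.

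CD14-IL1B, named as a monocyte cluster, held less Csf1r than the Macro clusters in all 3 groups. It held 169 CPM of Csf1r in the long-term, 131 in the T22 and 132 in the T127 pools, against 567, 1139.6 and 551 CPM in the Macro clusters. For Csf2ra it held 304, 223 and 264 CPM against 355, 401 and 295 CPM. No verdict on its name is drawn, as levels of the monocyte markers looked up (Cd14, Ly6c2, Ccr2, Itgam and Plac8) are not given here. The markers that follow are a selection. The cluster carried Xcr1 at 186, 575 and 312 CPM and Clec9a at 30.7, 155 and 68.1 CPM, genes of conventional dendritic cells, together with Ccr7 and Fscn1. Of the macrophage markers, Adgre1 stood at 14.2, 19.3 and 6.85 CPM. Of the malignant markers looked up (Epcam, Krt8, Krt18 and Cldn3), only Epcam is given here. It stood at 992, 167 and 636 CPM in CD14-IL1B, and the part of other cells in the levels of this cluster was not tested. After thinning, 33.0% of its 446 long-term cells had Csf2ra without Csf1r, 13.2% Csf1r without Csf2ra and 18.6% both. Of 8735 Macro cells the shares were 14.6%, 27.7% and 47.2%. The same order held in T22, with 42.7%, 7.69% and 7.69% of 143 CD14-IL1B cells against 5.72%, 26.5% and 61.0% of 3324 Macro cells, and in T127, with 34.0%, 9.03% and 17.4% of 144 against 12.7%, 34.2% and 41.1% of 1580 cells.

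Csf2ra, the chain that binds GM-CSF specifically, was found in all macrophage clusters, at differing levels. In the long-term pools Macro-M1 held 408 CPM, Macro-others 370.2, CD16-CDKN1C 339, Macro-M2 331, Macro-MKI67 306 and CD14-PF4 246, and each overlapped the next. At 3000 UMIs per cell the long-term shares with a UMI were 66.8% (interval 63.8 to 69.8) in Macro-M1 and 52.0% (47.1 to 56.9) in Macro-MKI67. Summed Macro clusters held 405, 419.7, 393 and 388 CPM in T22 and 291, 302, 303 and 286 CPM in T127. Long-term pools 1 to 4 held 419, 380.3, 413 and 421 CPM and pools 5 to 8 held 308, 313, 296 and 280.3 CPM. The labels name no difference among these pools, and Csf2rb ran the other way in the same cells, with 6.55, 5.71, 7.42 and 4.77 CPM in pools 1 to 4 and 11.8, 10.9, 11.9 and 10.0 CPM in pools 5 to 8. What set these pools apart was not tested.

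Csf2ra was also found in T22 malignant cells. They held 18.1 CPM long-term (pools 14.1 to 20.5) against 1.90 CPM in T127 malignant cells (1.28 to 2.54), a log2 ratio of T127 over T22 of -2.72. In the short-term pools T22 held 13.1, 11.4, 12.7 and 13.1 CPM and T127 0.36, 0.35, 0.54 and 0.39 CPM (-3.27; ratio 0.033, interval 0.025 to 0.042). The ranges lay apart in both experiments, as did those of 17.6% and 19.1% of genes lower in T127 past 2-fold. Thinned to 3000 UMIs, 5.14% of long-term T22 malignant cells had a Csf2ra UMI, against 0.76% of T127 malignant cells, 1.82% of T and NK cells and 3.86% of CAF, whose binomial interval overlapped that of the T22 malignant cells. Among short-term T22 cells the shares were 2.92% of malignant cells, 3.05% of CAF and 1.71% of T and NK cells, so at this depth T22 malignant cells did not stand above CAF, and in T127 0.10% of malignant cells had a UMI. Unthinned long-term shares were 24.9% in T22 malignant, 3.91% in T127 malignant and 10.7% in CAF cells, the former pair at median depths of 15599 and 20068 UMIs. Csf2rb, its signaling partner, had 2 UMIs in the 2259 long-term T22 malignant cells and 3 in the 1954 short-term ones.

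Csf2rb was low and lay in all myeloid clusters and in endothelial cells. Long-term levels ran from 22.8 CPM in CD14-PF4 (24 UMIs) over pDC (17.2), CD14-IL1B (13.1) and Macro-M2 (9.96) to Endo.cells at 8.77 and Macro-MKI67 at 7.18 CPM, with overlap from each to the next. T and NK clusters held no Csf2rb UMI in 1839 long-term cells, which allows up to 0.36 CPM at 3 counts. CD14-IL1B and Macro-M2 overlapped in every group, at 13.1 and 9.96 CPM long-term (log2 ratio 0.37, SD 0.51), 16.8 and 9.77 in T22 (0.72, SD 0.80) and 22.6 and 23.1 in T127 (-0.034, SD 0.58). Within pools, CD14-IL1B was higher in 7 of 8 long-term, 3 of 4 T22 and 2 of 4 T127 pools. The ratios were 1.32 (interval 1.03 to 1.67), 1.72 (1.18 to 2.47) and 0.98 (0.72 to 1.30). Mice have a near-identical second gene, Csf2rb2, for the chain that pairs with the IL3 receptor. Reads shared by the pair may be lost or split, so the level of each is uncertain.

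Csf3r separated the same clusters. CD14-IL1B held 1.44, 0.71 and 0.40 CPM in the 3 groups, from 9, 2 and 1 UMIs, against 6.45, 11.2 and 8.93 CPM in Macro-M2, lower in all pools with ranges apart (ratios 0.22, interval 0.10 to 0.43; 0.064, interval 0.0076 to 0.24; and 0.045, interval 0.0011 to 0.26). The highest level was in CD14-PF4 of T22, at 22.04, 54.2, 13.4 and 46.7 CPM from 27 UMIs in 66 cells. The same cells carried all 6 other neutrophil markers looked up (S100a8, S100a9, Ly6g, Cxcr2, Retnlg and Mmp8) at 3987 CPM in sum, with pools from 126.8 to 10529.7, against 20.9 CPM in Macro-M2, where Ly6g was at 0. CD14-PF4 of T127 held 5 of the 6 markers at 1228 CPM, with Ly6g at 0, and 9.61 CPM of Csf3r. Long-term CD14-PF4 cells held 4 of these 6 markers at 515 CPM, with Ly6g and Retnlg at 0, and 4 UMIs of Csf3r, whereas Macro-M2 of the long-term and T127 pools held the markers at 313 and 223 CPM. No cluster was named for neutrophils, the cells best known for CSF3R, and the part of neutrophil RNA in these levels was not tested.

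**Figure D4:**
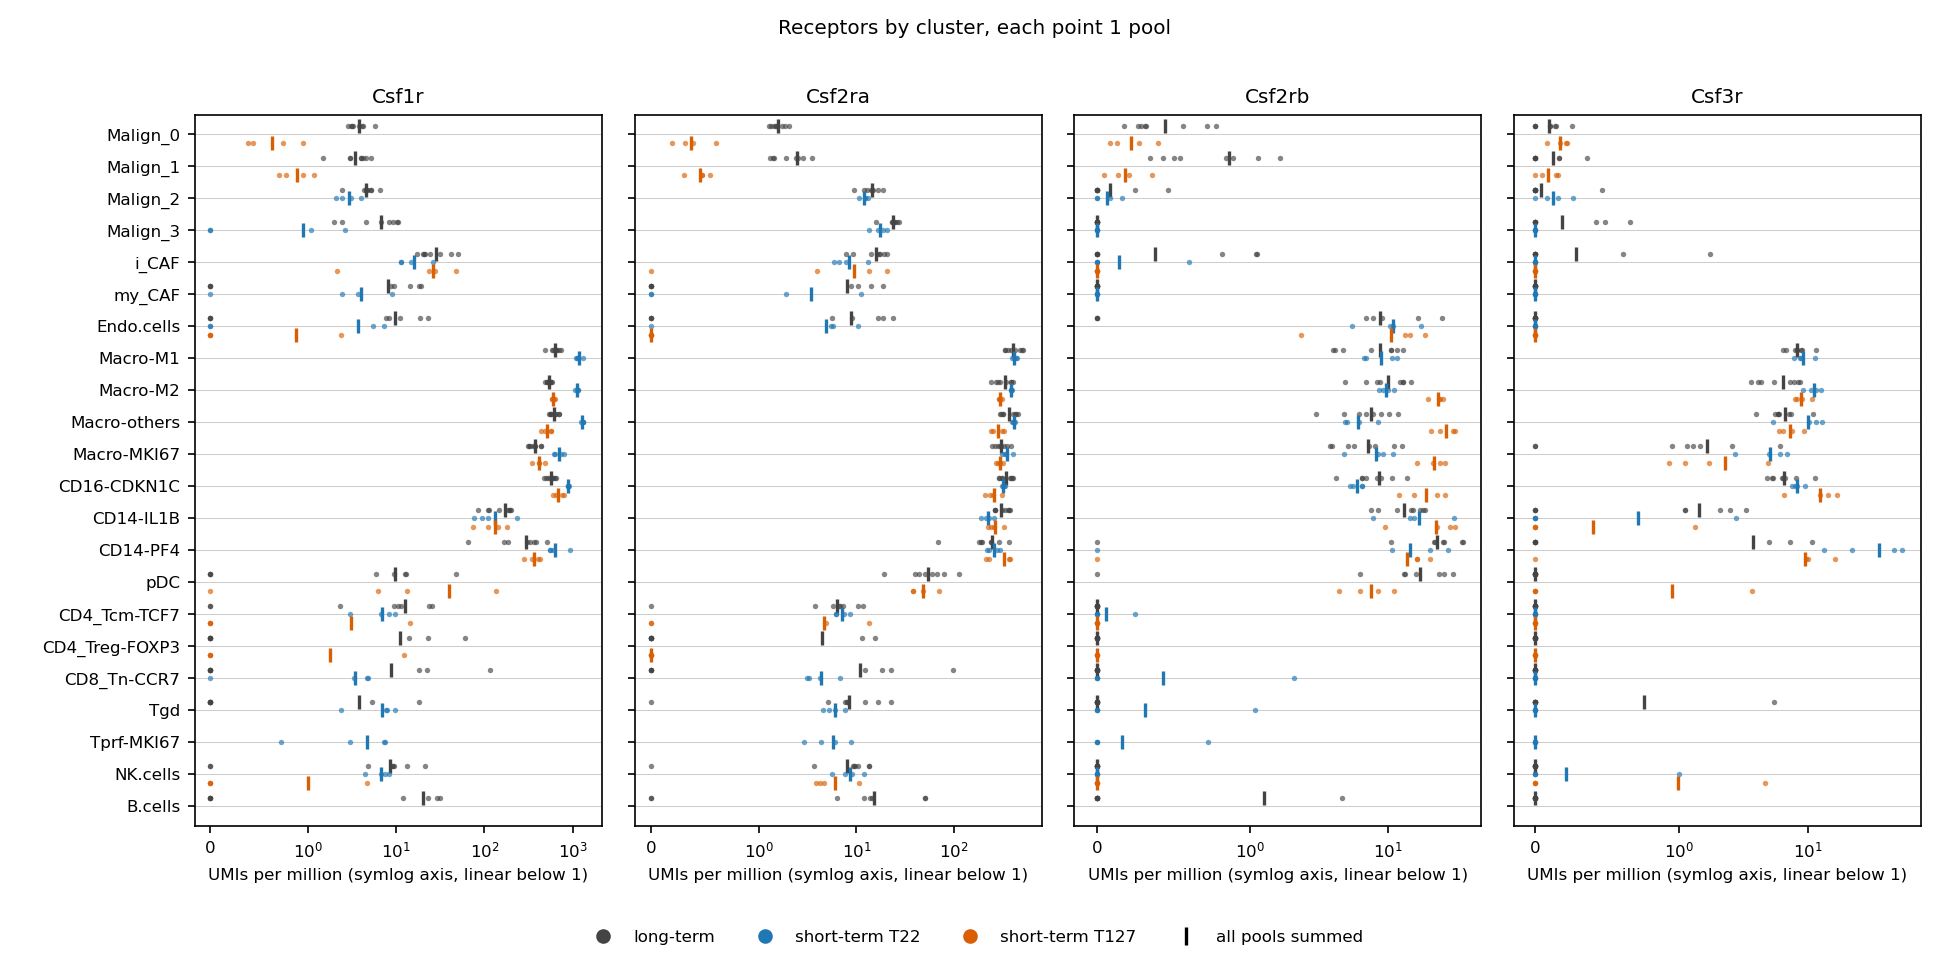
Levels of the 4 receptor chains by cluster in CPM, on an axis that is logarithmic above 1 and linear below it. Points are pools and vertical bars are pools summed: long-term Csf1r is highest in Macro-M1 (632 CPM) and lower in CD14-IL1B (169), Csf2ra is spread over the myeloid clusters, and Csf2rb in T127 Macro clusters (23.3 CPM) lies above T22 (8.16 CPM).

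The short-term pools allowed the same cluster to be set side by side in both models. In the 10 non-malignant clusters with at least 50 cells in each, 2 to 5 of the 8 members per cluster reached a mean of 5 CPM, which made 39 of 80 pairs of member and cluster, and 7 of these 39 passed 2-fold with pool ranges apart. No member was called in CD14-IL1B (6.05% of genes higher and 2.44% lower in T127), CD14-PF4 (3.17% and 3.95%), CD4_Tcm-TCF7 (4.25% and 5.29%), Endo.cells (1.97% and 2.53%) or NK.cells (2.49% and 4.57%). Csf2rb was higher in T127 in 4 macrophage clusters, of which only Macro-others kept the call with a pseudocount of 10 CPM. It held 25.2, 23.5, 19.6 and 23.8 CPM in Macro-M2 against 10.1, 11.1, 9.24 and 8.67 in T22 (log2 ratio 1.16), in a cluster where 7.04% of genes were called higher. In Macro-MKI67 the values were 21.8 and 8.18 CPM (1.31; 6.37% of genes), in Macro-others 26.4 and 6.13 CPM (1.94; 9.48%) and in CD16-CDKN1C 19.0 and 5.97 CPM (1.52; 11.4%). Its T127 pools lay above its T22 pools in these 4 clusters and overlapped them in CD14-IL1B and CD14-PF4. Depth differed in CD16-CDKN1C, with medians of 2407 UMIs per cell in T22 and 4922 in T127. There 2562 of 4205 T22 cells and 119 of 402 T127 cells had under 3000 UMIs. The part of depth in the differences of this cluster was not tested, for Csf2rb or for the members below. Malignant cells of T127 held 0.20 CPM of Csf2rb, and the part of RNA from other cells was not tested.

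Csf1r ran the other way. It was lower in T127 with pool ranges apart in Macro-M2 (601 against 1122 CPM, log2 ratio -0.90), Macro-MKI67 (416 against 694, -0.74), CD16-CDKN1C (683 against 884, -0.37) and CD14-PF4 (368 against 634, -0.78), all short of 2-fold. Ranges lay apart at any fold with T127 lower for 18.7% of genes in Macro-M2, 14.6% in Macro-MKI67, 12.2% in CD16-CDKN1C, 5.85% in CD14-PF4 and 14.2% in Macro-others. In Macro-others it passed 2-fold, with 560.5, 565, 479 and 442 CPM against 1307, 1289, 1226 and 1315 (-1.34), as did Csf1 (3.44 against 27.7 CPM, -2.69), where 5.61% of genes were called lower. The Macro-others cells of T127 differed in other markers too, with Epcam at 579 against 40.4 CPM, Ccr7 at 165 against 11.7 and Fscn1 at 159 against 6.83, and the part of these in the result was not tested. Csf2ra was lower in T127 with ranges apart and under 2-fold in Macro-M2 (297 against 385 CPM, -0.37), Macro-others (-0.52) and CD16-CDKN1C (-0.32). The seventh call was Il34 in i_CAF. The median of all genes moved by -0.06 to 0.25 on the log2 scale in these clusters.

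**Figure D5:**
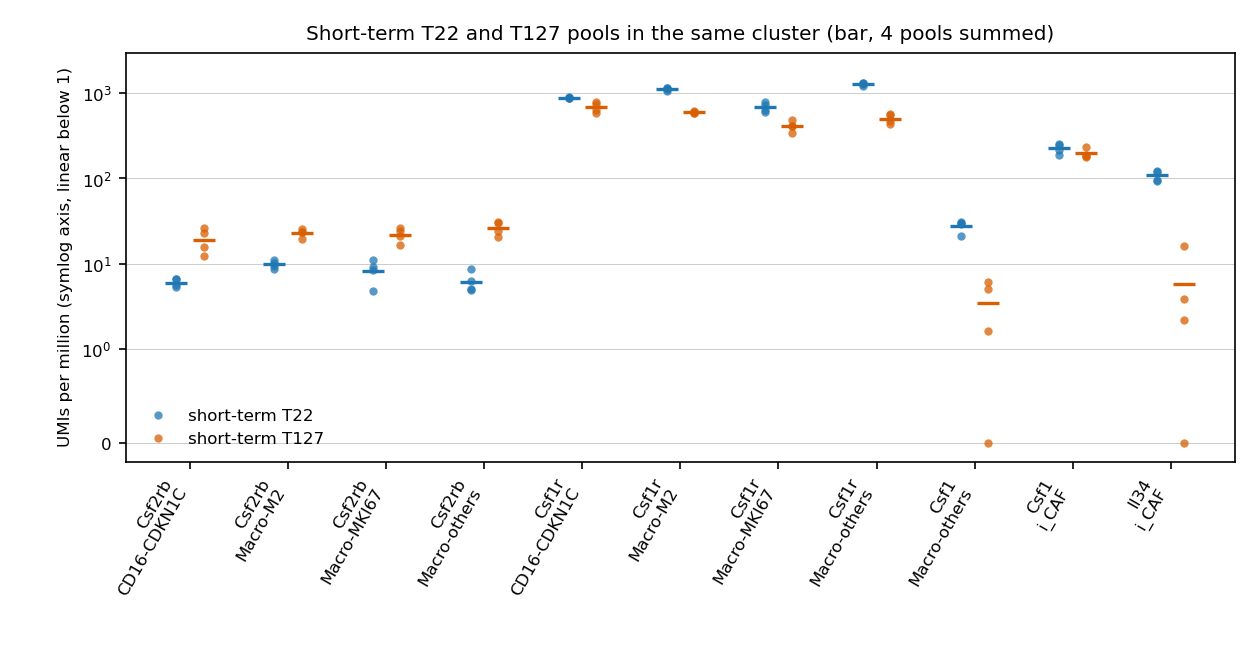
Levels in CPM (logarithmic above 1, linear below) in short-term T22 and T127 pools, for pairs of member and cluster, with points for pools and bars for 4 pools summed. Csf2rb lies higher and Csf1r lower in T127 in 4 macrophage clusters, Csf1 in i_CAF overlaps, and Il34 in i_CAF lies at 108 CPM in T22 and 5.71 in T127.

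Of 26 further genes of these pathways (receptor partners, kinases, STAT factors and their targets, and myeloid transcription factors), 20 or 21 were measured at 5 CPM in the 4 macrophage clusters. By the same rule, of 21 genes in Macro-M2 5 were higher and 2 lower in T127 (all genes, 7.04% and 5.47%). In Macro-MKI67 5 and 3 of 21 were called (6.37% and 5.81%), in Macro-others 8 and 0 of 21 (9.48% and 5.61%) and in CD16-CDKN1C 7 and 1 of 20 (11.4% and 5.52%). The 4 genes called higher in all 4 clusters were Csf2rb2, Cebpb, a transcription factor of myeloid cells, Cish, a feedback inhibitor induced by STAT5 downstream of GM-CSF among other cytokines, and Sdc1, a surface proteoglycan of epithelial and other cells. Sdc1 stood at 10.4 to 17.0 CPM in these clusters of T127 and at 345 CPM in T127 malignant cells. Epcam, the only malignant marker given here, stood at 144 CPM in Macro-M2 and 427 in Macro-MKI67 of T127, against 48.8 and 179.5 in T22. In CD16-CDKN1C it stood at 51.0 against 125 CPM. The study reports more Epcam in T22 than in T127 malignant clusters, so Epcam does not measure malignant RNA alike in both models. The part of malignant RNA in these calls was not tested. Malignant cells of T127 held 1.62 CPM of Cish. In Macro-M2, Cish held 60.6 CPM in T127 (pools 56.7 to 63.7) and 4.72 in T22 (2.21 to 6.86), Cebpb 2539.5 and 832 CPM and Csf2rb2 116 and 46.8 CPM. Irf8, a transcription factor of monocytes and dendritic cells, was lower in Macro-M2, at 161 against 333 CPM, and in Macro-MKI67, at 91.4 against 252 CPM. Cish was also called higher in T127 in CD14-IL1B and CD14-PF4, Cebpb in CD14-IL1B, and Cish lower in CD4_Tcm-TCF7, NK.cells and malignant cells.

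In malignant cells of the short-term pools, 15 of the 26 were measured, of which 3 were higher in T127 (Kitl, Stat5a and Sdc1) and 7 lower, beside 20.4% and 19.1% of all genes. Kitl, the ligand of the related receptor KIT, held 1594 CPM in T127 and 792 in T22 malignant cells. Ptprz1 and Sdc1 encode cell surface molecules also known to bind IL34. Ptprz1 held 10.9 CPM in T127 and 27.1 in T22 malignant cells, and Sdc1 345 CPM in T127 malignant cells. Il3, whose receptor shares the beta chain family, had 6 UMIs in the T and NK cells of T22.

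Genes with the most similar pattern were sought over 52 cluster levels of the 3 groups, among 14477 genes, as Pearson correlations of log2(CPM + 1). The points share libraries and clusters of cells, and the values are given as a description. Csf1r was most like Clec4a2 (0.977), Lyz2 (0.975) and Aif1 (0.972), and Csf2ra like Clec4a2 (0.952), Cd300c2 (0.951) and H2-DMb1 (0.951). Csf2rb was most like Csf2rb2 (0.952) and Csf3r like Klra2, Gm35154 and Ticam2. Il34 was most like S100b (0.915), Arhgef17 (0.902) and Calhm5 (0.891), whereas Csf1 had no match above 0.839, its value with Ltbp3. The pair Csf1 and Il34 stood at 0.647 and the pair Csf1r and Csf2ra at 0.947. Csf2 was most like Tcrg-C4 (0.895) and Csf3 like Erc2 (0.769).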

How the data were processed

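The labels list the organism as Homo sapiens, while mice and genes are mouse. The authors used Cell Ranger 6.0.0, the mouse genome GRCm38 and intronic reads too, removed doublets and named clusters from marker genes. The deposited tables give raw UMI counts per cell and gene with the cluster names, and these names were used unchanged. Of 53946 cells, 8635 had under 1000 genes, a minimum that the methods name, and were kept. Counts were summed per cluster and pool with Python 3.11.15, numpy 2.4.6, scipy 1.17.1 and pandas 2.3.3. Ratios used a pseudocount of 1 CPM. A model difference was called past 2-fold with pool ranges apart, for genes with a mean of at least 5 CPM. Shares of cells with a UMI were taken after thinning cells to 3000 UMIs, leaving out shallower cells. The calling step was tested on simulated counts. The rule named all 8 members in every cluster, of which the text gives those where a level or comparison lay, the 26 related genes by counts and where a result turned on them, and the 3 most similar genes by correlation. The rule for the members used no measured value, but members, lists and comparisons were chosen with earlier results of these data known. No mouse reference sequence was used here.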

Additional observations from a re-analysis of the deposited data

Results flagged for a closer look

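Of 111 levels with at least 100 UMIs, 8 had a pool that stood apart from the other pools of its group by Dixon's criterion, and chance alone sets apart a pool in about 1 in 20 groups. Csf1 reached 41.2 CPM in Macro-MKI67 of long-term pool 7 (18.1 over all pools), stood at 21.1 CPM in Macro-others of T22 pool 1 (27.7 over all) and reached 234 CPM in i_CAF of T127 pool 3 (198 over all). Csf1r reached 929 CPM in CD14-PF4 of T22 pool 2 (634 over all). Csf2 reached 108 CPM in CD4_Tcm-TCF7 of T22 pool 2 (74.6 over all) and 10.7 CPM in Malign_2 of T22 pool 1 (2.83 over all), where 1 cell held 79 of 135 UMIs. Csf2ra stood at 15.9 CPM in Malign_3 of long-term pool 6 (23.6 over all) and stood at 393 CPM in Macro-M2 of T22 pool 2 (385 over all).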

How the results depend on the processing

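No paired analysis was possible because between groups pools share only a number and no result comes from a test. Ratios between cell types, and between malignant cells of both models in the long-term pools, were taken within each pool and so paired by pool. With a pseudocount of 10 CPM the Csf2 log2 ratios of lymphoid over macrophage clusters were 2.65 long-term, 2.85 in T22 and 2.05 in T127, the Csf3r ratios of CD14-IL1B over Macro-M2 were -0.52, -0.98 and -0.86, the Csf1 ratio of T127 over T22 malignant cells was 1.25 long-term and the i_CAF ratio in T22 was 1.96. A larger pseudocount shrinks ratios of low levels by its construction. The i_CAF ratio in T22 was 2.02 without the top 5% of cells by UMIs and 2.00 as a mean over cells, and the cause was not tested. The 7 calls between the models became 2 at 4-fold, Csf1 in Macro-others and Il34 in i_CAF, and 4 with a pseudocount of 10 CPM. No Csf2rb call remained at 4-fold, and with the larger pseudocount only the Csf2rb call in Macro-others did.

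Shares of Macro cells with a receptor UMI move with depth. In the order long-term, T22 and T127 they were 54.6, 74.2 and 55.2% for Csf1r at 1500 UMIs and 94.5, 94.1 and 94.8% without thinning, 39.5, 44.8 and 34.5% and 90.8, 93.2 and 88.8% for Csf2ra, 1.22, 1.31 and 2.77% and 8.68, 9.60 and 23.7% for Csf2rb, and 0.88, 1.83 and 1.39% and 6.80, 11.1 and 8.31% for Csf3r.

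With each pool left out in turn, the Csf1 ratio of i_CAF over malignant cells ran from 1.51 to 1.59 long-term, 2.10 to 2.15 in T22 and 0.38 to 0.55 in T127. Malignant Csf1 ran from 1.47 to 1.54 and 1.36 to 1.50, and malignant Il34 from 0.20 to 0.27 and 0.30 to 0.37, long-term and short-term. Csf1r in Macro-MKI67 over Macro-M2 ran from -0.56 to -0.50, -0.77 to -0.62 and -0.64 to -0.45, and in Macro-M2 over Macro-M1 from -0.28 to -0.22 long-term and -0.085 to 0.026 in T22, where leaving out pool 2 turned the direction. Csf2rb in CD14-IL1B over Macro-M2 ran from 0.30 to 0.57, 0.32 to 1.04 and -0.17 to 0.15, so its direction in T127 turned without pool 3. Csf3r ran from -1.71 to -1.48, -3.67 to -2.60 and -3.36 to -2.61, and Csf2 from 5.44 to 5.77, 5.42 to 5.82 and 3.80 to 5.34.

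Other alternatives, of which those without any shared barcode, without long-term pools 1 to 3 and all on single levels were chosen after the data were seen, left 119 values of the ratios, calls and shares within the spread between pools and moved the 36 given above. Among levels of at least 100 UMIs in a cluster, those that moved past 1.5-fold were Csf2 in Malign_2 of T22 (0.14 CPM without pool 1), in Malign_1 (0.82 CPM without the top 5% of cells and 3.31 as a mean over cells long-term, 1.13 without pool 4 in T127) and in Tprf-MKI67 of T22 (174 as a mean over cells), and Csf3 in Malign_1 (8.10 CPM without long-term pools 1 to 3). Of 338 further levels, of classes or of fewer UMIs, 140 moved past 1.5-fold without a pool, an alternative also chosen after the data were seen. Among those in the text, Csf2 was 0 CPM in CD4_Tcm-TCF7 of T127 without pool 2 and 0.11 CPM in long-term i_CAF without pool 1. Il34 in i_CAF of T127 was 2.11 CPM without pool 1, and Csf3 in Macro-M2 of T127 was 2.44 CPM without pool 3. Csf3r in CD14-IL1B was 0 CPM in T22 without pool 3 and in T127 without pool 4. In the summed Macro clusters, Csf2 was 0.058 CPM long-term without pool 4 and 0 CPM in T127 without pool 3. Il34 in the Macro clusters of T127 was 0.25 CPM without pool 1. Depth limits every share of cells with a receptor UMI given above, and few cells limit the levels of Csf2.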
